A study of Mus musculus with 6 samples.

Results

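The genes described here encode the tumour necrosis factor (TNF) superfamily ligands and receptors, the adaptors, kinases and inhibitors that act beneath the death receptors, and the caspases. They were chosen by symbol: probes annotated to a Tnfsf, Tnfrsf, Traf, Ripk or Casp gene, or to Fas, Fasl, Cflar, Fadd, Tradd, Cradd, Ltbr, Birc2, Birc3, Xiap, Bcl10 or Malt1, with Casp1 and Casp4 left out. That choice gave 79 of the 16281 probes in the table, which name 50 genes, and 69 of those probes, naming 49 genes, had a value on all 6 arrays. The pattern also takes in Casp8ap2, a binding partner of caspase 8 and not a caspase.

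The cells were RAW 264.7, an established mouse macrophage line that came from a tumour induced by Abelson murine leukaemia virus, so the data describe 1 transformed line. One group was left untreated and the other received lipopolysaccharide (LPS) at 100 ng/ml with LPS-binding protein (LBP) at 100 pM, and total RNA was taken from both after 4 h in culture. LBP passes LPS to CD14 and the TLR4 receptor, and no group had LPS or LBP alone. Each of 6 two-colour arrays compared treated with untreated RNA: 3 arrays, numbered as sets 1 to 3, had treated RNA in the dye Cy5, and 3, numbered likewise, had it in Cy3. The deposited value is a log2 ratio per probe, read here as Cy5 over Cy3, which the labels call the test and the control channel. That direction is the likely one; if the table divides the other way, all signs given here flip. As deposited, arrays of opposite orientation correlated between -0.688 and -0.262 across probes, so every array that had treated RNA in Cy3 was given the opposite sign, and positive values mean more RNA in treated cells. The 2 arrays of a set were averaged to 1 set value (n = 3). Whether the sets are separate cultures is not stated in the labels, so p-values cover only how these samples varied, and that variation may be technical.

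TNF family ligands are mostly trimeric membrane proteins that cluster their receptors. Receptors with a death domain, such as Fas and the TNF receptor Tnfrsf1a, can assemble Fadd with caspase 8 and start apoptosis, whereas receptors without one bind TRAF adaptors and mainly signal to NF-κB and MAP kinases. The caspase-like protein Cflar (c-FLIP) holds back caspase 8, and the inhibitor-of-apoptosis proteins Birc2 and Birc3 are ubiquitin ligases of TNF receptor complexes. In macrophages, LPS drives TNF release and induces several NF-κB target genes that restrain cell death.

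Of the 49 measured genes, 11 rose (22.4%), 7 fell (14.3%) and 31 did not pass the test, at an adjusted p below 0.05 with limma. Over all 11364 features the shares were 14.0% higher and 15.0% lower, 29.0% in either direction, so the share of members called lower was near the background. The members' median log2 ratio was 0.03, beside 0.00079 for all features. By at least 1.5-fold, 7 members rose, Fas, Traf1, Cflar, Tnfrsf1b, Birc3, Tnfsf9 and Tnfrsf1a, and 0 fell. Over all features 3.51% rose and 1.35% fell that far, so 0 falls among 49 members is near the background share. On all 6 arrays 15 members kept 1 sign, and 25.7% of all features did. These calls average arrays by set number, although same-numbered arrays did not deviate together. With the 6 arrays fitted as separate values, 9 members rose and 5 fell (10.6% and 11.1% of all features), and the calls of Casp8, Cradd, Fadd and Tnfrsf13c were lost.

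**Figure D1:**
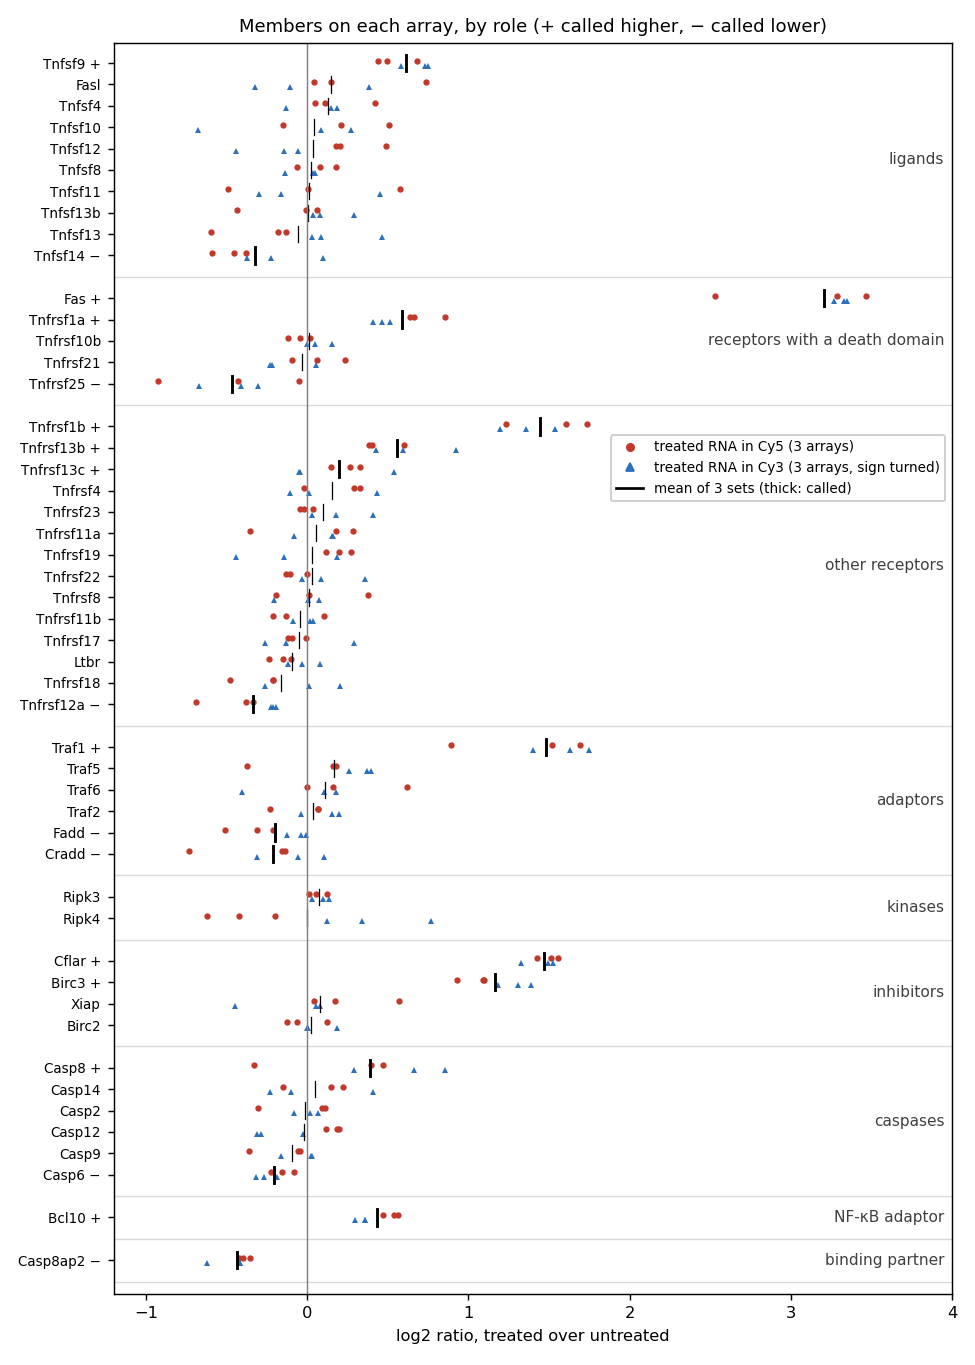
Log2 ratio of treated over untreated RNA (x axis) for the 49 member genes measured on all arrays, grouped by role; circles are the 3 arrays with treated RNA in Cy5, triangles the 3 with treated RNA in Cy3 after the sign was turned, and bars the mean of 3 sets. Fas stands at the far right at 3.20, the inhibitors Cflar and Birc3 lie to the right of 0 on every array, and most ligands and caspases straddle 0.

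The receptors with a death domain held the largest change of the whole group. Fas, the receptor for Fas ligand, read 3.46, 2.53 and 3.29 in sets 1, 2 and 3 with treated RNA in Cy5, and 3.33, 3.35 and 3.27 with treated RNA in Cy3. The set 2 array with treated RNA in Cy5 was the lowest and the other 5 lay close together. Fas thus rose 9.22-fold, a mean log2 ratio of 3.20 ± 0.24 (SD, n = 3; adjusted p = 3.13e-07). In a bulk sample, a change in the share of cells that express a gene and a change in RNA per cell cannot be told apart.

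Tnfrsf1a, the main TNF receptor of most cell types, read 0.66, 0.85 and 0.64 with treated RNA in Cy5 and 0.41, 0.51 and 0.46 with it in Cy3. All 6 arrays were above 0, with the Cy5 orientation higher in each set. It rose 1.5-fold (0.59 ± 0.081 on the log2 scale, adjusted p = 9.43e-05). Tnfrsf25 (DR3), the receptor for the ligand Tnfsf15, read -0.43, -0.05 and -0.93 in Cy5 and -0.30, -0.67 and -0.41 in Cy3, all below 0 but widely spread. It fell 1.38-fold (-0.47 ± 0.17, adjusted p = 0.0017), a call that was lost on the arrays with treated RNA in Cy5 alone (adjusted p = 0.13). The TRAIL receptor Tnfrsf10b (0.01 ± 0.067) and Tnfrsf21 (-0.03 ± 0.11) did not pass the test. Of the 5 receptors with a death domain, 2 rose and 1 fell.

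Among the 14 measured receptors without a death domain, 3 rose, 1 fell and 10 did not pass, with a median of 0.03. Tnfrsf1b, the TNF receptor that signals through TRAF2, read 1.74, 1.61 and 1.23 in Cy5 and 1.54, 1.36 and 1.20 in Cy3. Set 3 was the lowest in both orientations, and every array was far above 0. The gene rose 2.72-fold (1.44 ± 0.21, adjusted p = 1.12e-05). Both TNF receptors therefore rose, by different amounts, and the difference between the 2 genes was not tested.

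Tnfrsf12a (Fn14), the receptor for the ligand Tnfsf12, was the receptor without a death domain that fell. Its arrays read -0.38, -0.69 and -0.34 in Cy5 and -0.23, -0.19 and -0.21 in Cy3, all below 0 and lower in the Cy5 orientation. The fall was 1.26-fold (-0.34 ± 0.088, adjusted p = 0.0018), and with the Cy3 orientation alone it stood at -0.21 (adjusted p = 0.052). Its ligand Tnfsf12 did not pass the test (0.04 ± 0.031).

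The receptors for BAFF and APRIL, cytokines that keep B cells alive, gave mixed values. Tnfrsf13b (TACI) rose on the mean of its probes (0.55 ± 0.095, adjusted p = 0.00016), but its 2 probes moved apart, as described with the probe pairs. Tnfrsf13c (BAFF receptor) rose by 1.15-fold (0.20 ± 0.13, adjusted p = 0.035), with 4 of 6 arrays above 0. That call was lost without set 1 (0.13, adjusted p = 0.21), without set 3 (0.23, adjusted p = 0.075) and with 6 separate arrays (adjusted p = 0.15). The third receptor, Tnfrsf17 (BCMA), did not pass (-0.05 ± 0.14), nor did the ligands Tnfsf13b (BAFF, 0.0047 ± 0.073) and Tnfsf13 (APRIL, -0.05 ± 0.027).

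Of the other receptors, Tnfrsf11a (RANK), which drives osteoclast formation, was at 0.06 ± 0.16 and its soluble decoy Tnfrsf11b (osteoprotegerin) at -0.05 ± 0.092. The lymphotoxin receptor Ltbr was at -0.09 ± 0.075. The costimulatory receptors Tnfrsf4 (0.16 ± 0.19), Tnfrsf8 (0.01 ± 0.073) and Tnfrsf18 (-0.16 ± 0.13) did not pass. The same held for Tnfrsf19 (0.03 ± 0.12) and for the decoy TRAIL receptors Tnfrsf22 (0.03 ± 0.074) and Tnfrsf23 (0.10 ± 0.077), which are close relatives, so that probes for one could also read the other. Without set 2, Tnfrsf18 was called lower (-0.24, adjusted p = 0.0071). Of its 2 probes measured on all arrays, 1 was called lower in limma's test of single probes (-0.46 ± 0.38, adjusted p = 0.025). The other stood at 0.15 ± 0.14 and was not called. Their difference did not pass limma's test (adjusted p = 0.12).

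Promoters were searched for 4 short motifs. The promoters of 3 of the 5 receptors that rose share 1 of them, and so do those of Tnfrsf25, which fell, and Tnfrsf18, which did not pass. RefSeq promoter sequences on GRCm38.p6 matched 43 of the 50 member genes, with 49 promoters, and the 250 bases before each start were searched on both strands. TTCNNNGAA, the letters of a STAT-binding GAS element, were in 6 of 49 member promoters (12.2%) and in 7.02% of 32851 promoters, and among the members in those of Fas, Tnfrsf1a, Tnfrsf1b, Tnfrsf25, Casp12 and Tnfrsf18. Of 10 promoters of genes that rose, 3 held it, those of Fas, Tnfrsf1a and Tnfrsf1b. Of 8 promoters of genes that fell, 1 held it (Tnfrsf25). Of 30 promoters of genes that did not pass, 2 held it (Casp12 and Tnfrsf18). No match to the 4 motifs was found for Tnfrsf13b and Tnfrsf13c, the other receptors that rose. Not every gene that rose had a promoter to search, and whether they did is not given here. The ISRE core, searched as TTTC, any 2 bases and TTTC, was in 6.12% of member promoters (Tnfrsf1b, Tnfrsf17 and Tnfsf13b) and 2.98% of all. The NF-κB consensus, searched by name as the κB consensus, was in 6.12% (Bcl10, Tnfrsf25 and Tnfrsf8) against 7.25% of all, and TATAAA in 12.2% (Cflar, Cradd, Tnfrsf17, Tnfrsf23, Tnfsf11 and Xiap) against 12.4%. A match is a description of the letters and not a bound site. Below are the promoters of Fas, Tnfrsf1b and Tnfrsf1a, chosen as receptors that rose and hold the GAS letters. That of Bcl10 was chosen as the gene that rose and holds the κB consensus. All are printed 5′ to 3′ on the gene's strand, with the matches in capitals. They lie at chr19:34290409-34290658 on the plus strand (Fas, GAS letters 93 to 85 bases before the start), chr4:145246871-145247120 on the minus strand (Tnfrsf1b, GAS letters at 181 to 173 and the ISRE core in the last 10 bases), chr6:125349473-125349722 on the plus strand (Tnfrsf1a, GAS letters at 244 to 236) and chr3:145924012-145924261 on the plus strand (Bcl10, κB consensus at 241 to 232).
Fas: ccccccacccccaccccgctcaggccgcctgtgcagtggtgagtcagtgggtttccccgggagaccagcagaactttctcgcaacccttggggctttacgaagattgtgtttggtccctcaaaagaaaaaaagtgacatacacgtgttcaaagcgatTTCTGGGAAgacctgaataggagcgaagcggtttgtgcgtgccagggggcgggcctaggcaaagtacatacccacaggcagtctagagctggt
Tnfrsf1b: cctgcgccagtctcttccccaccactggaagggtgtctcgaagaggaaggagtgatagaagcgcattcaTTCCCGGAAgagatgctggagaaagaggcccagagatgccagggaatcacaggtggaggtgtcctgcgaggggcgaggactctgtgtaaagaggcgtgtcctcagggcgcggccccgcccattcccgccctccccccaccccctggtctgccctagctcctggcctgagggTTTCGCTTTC
Tnfrsf1a: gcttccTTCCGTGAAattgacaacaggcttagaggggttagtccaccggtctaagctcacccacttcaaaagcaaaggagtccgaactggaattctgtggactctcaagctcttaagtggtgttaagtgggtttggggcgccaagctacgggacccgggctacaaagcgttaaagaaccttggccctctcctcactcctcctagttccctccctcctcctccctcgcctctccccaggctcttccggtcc
Bcl10: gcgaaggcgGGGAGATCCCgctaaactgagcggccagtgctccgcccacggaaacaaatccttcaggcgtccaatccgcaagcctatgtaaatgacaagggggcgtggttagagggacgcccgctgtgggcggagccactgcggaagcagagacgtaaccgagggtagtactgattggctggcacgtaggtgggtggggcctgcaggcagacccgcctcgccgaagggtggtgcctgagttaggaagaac
The GAS letters of Fas, Tnfrsf1b and Tnfrsf1a differ in the 3 free bases at their centre and stand at different distances from the start. In none of the shown windows do the matched motifs overlap each other.

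Of the 10 ligands, 1 rose, 1 fell and 8 did not pass, with a median of 0.03. Tnfsf9, the ligand of the costimulatory receptor Tnfrsf9, read 0.50, 0.44 and 0.68 in Cy5 and 0.58, 0.73 and 0.75 in Cy3. All 6 arrays were above 0, and the gene rose 1.53-fold (0.61 ± 0.091, adjusted p = 9.16e-05). Tnfsf14 (LIGHT), which binds Ltbr and the herpesvirus entry mediator, read -0.59, -0.46 and -0.38 in Cy5 and -0.37, 0.10 and -0.22 in Cy3. The set 2 array in Cy3 was the exception to the fall, which was 1.25-fold (-0.32 ± 0.15, adjusted p = 0.0068). On the Cy3 arrays alone Tnfsf14 was at -0.17 (adjusted p = 0.31).

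The death ligands Fasl and Tnfsf10 did not pass. Tnf, which is not a member by symbol, rose and is given with the other pathway genes. Fasl, the ligand of the strongly raised Fas, was at 0.15 ± 0.11 (adjusted p = 0.078), with arrays from -0.32 to 0.74, and it was called higher without set 3 (0.21, adjusted p = 0.028). Tnfsf10 (TRAIL) was at 0.04 ± 0.17, with arrays from -0.68 to 0.51. Both therefore had arrays on each side of 0. Tnfsf4, the ligand of Tnfrsf4, was at 0.13 ± 0.013 (adjusted p = 0.053), just outside the threshold. That small SD is between set values, and its single arrays ran from -0.13 to 0.42. A second Tnfsf4 probe, measured on 5 arrays, entered no test. It read -0.38, -1.13 and 0.01 with treated RNA in Cy5 and 0.43 and 0.47 with it in Cy3. Tnfsf11 (RANKL) was at 0.01 ± 0.11 and Tnfsf8, the ligand of Tnfrsf8, at 0.02 ± 0.11.

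Of the 6 adaptors measured on all arrays, 1 rose, 2 fell and 3 did not pass. Traf1, a TRAF without a RING domain that binds Traf2 and the inhibitor-of-apoptosis proteins, read 1.69, 0.89 and 1.52 in Cy5 and 1.40, 1.75 and 1.63 in Cy3. As for Fas, the set 2 array in Cy5 was the lowest. Traf1 rose 2.79-fold (1.48 ± 0.14, adjusted p = 2.47e-06). Its partner Traf2, which recruits Birc2 and Birc3 to TNF receptors, did not pass (0.04 ± 0.089), nor did Traf6 (0.11 ± 0.023), the TRAF of the TLR pathway, or Traf5 (0.17 ± 0.14), which was called higher without set 2 (0.24, adjusted p = 0.0052).

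The 2 death-domain adaptors fell slightly. Cradd, which links caspase 2 to its platform protein Pidd1, read -0.14, -0.73 and -0.15 in Cy5 and -0.31, 0.10 and -0.05 in Cy3. The set 2 array in Cy5 was the lowest of the 6, and 1 array was above 0. Cradd fell 1.16-fold (-0.21 ± 0.11, adjusted p = 0.019), and Fadd, which joins Fas to caspase 8, fell 1.15-fold (-0.20 ± 0.084, adjusted p = 0.018). Both calls were lost without set 2, at -0.16 for Cradd (adjusted p = 0.083) and -0.16 for Fadd (adjusted p = 0.081), and Fadd was also lost without set 3 (-0.19, adjusted p = 0.073). With 6 separate arrays neither was called (adjusted p = 0.21 for Cradd and 0.091 for Fadd).

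Traf4 had no probe with a value on every array. Its 2 probes gave -0.57, -0.67, -0.47, -0.33 and -0.42, and -0.52, -0.69, -0.22, -0.71 and -0.38, on the 5 arrays that measured each. All 10 values were below 0. In a fit over the 12192 features measured in both orientations of at least 2 sets, where 13.9% were called lower, Traf4 was lower by 1.37-fold (-0.46 ± 0.14, adjusted p = 0.0011).

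The inhibitors rose in part. Cflar read 1.42, 1.51 and 1.56 in Cy5 and 1.32, 1.52 and 1.49 in Cy3, the tightest values among the members that rose by at least 2-fold. It rose 2.77-fold (1.47 ± 0.085, adjusted p = 9.04e-07). Birc3 read 1.09, 1.10 and 0.93 in Cy5 and 1.39, 1.31 and 1.18 in Cy3, and rose 2.24-fold (1.17 ± 0.098, adjusted p = 3.92e-06). All arrays of both genes lay far above 0, with Birc3 higher in the Cy3 orientation in every set. Birc2, the close paralogue of Birc3, was at 0.02 ± 0.046 over 3 probes, and Xiap, which blocks active caspases directly, at 0.08 ± 0.042.

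Of the 6 caspase genes, 1 rose, 1 fell and 4 did not pass. Casp8, the initiator caspase of the death receptors, read 0.40, -0.33 and 0.47 in Cy5 and 0.29, 0.85 and 0.66 in Cy3. The set 2 array in Cy5 was the only one below 0. Casp8 rose 1.31-fold (0.39 ± 0.16, adjusted p = 0.0030), a call that was lost on the Cy5 arrays alone (0.18, adjusted p = 0.49) and with 6 separate arrays (adjusted p = 0.084). Casp6, an executioner caspase, read -0.16, -0.22 and -0.08 in Cy5 and -0.31, -0.27 and -0.19 in Cy3. All 6 arrays were below 0, the fall was 1.15-fold (-0.20 ± 0.062, adjusted p = 0.012), and without set 1 it was not called (-0.19, adjusted p = 0.057).

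The mitochondrial initiator Casp9 was at -0.09 ± 0.08, Casp2 at -0.02 ± 0.093, Casp12 at -0.02 ± 0.095 and the epidermal Casp14 at 0.05 ± 0.07. None of these 4 passed the test on the mean of their probes. Casp8ap2, a large nuclear protein that binds caspase 8, read -0.42, -0.40 and -0.35 in Cy5 and -0.42, -0.62 and -0.41 in Cy3. It fell 1.35-fold (-0.44 ± 0.064, adjusted p = 0.00034), on all 6 arrays.

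Bcl10, which joins CARD proteins to NF-κB activation, rose 1.35-fold (0.43 ± 0.04, adjusted p = 0.00026), with all 6 arrays between 0.30 and 0.56. The necroptosis kinase Ripk3 did not pass (0.08 ± 0.034), although all 6 of its arrays were above 0. Ripk4, a kinase of epithelial cells, averaged -0.0014 ± 0.25 on 1 probe, from arrays that disagreed by dye. They read -0.62, -0.20 and -0.42 with treated RNA in Cy5 and 0.34, 0.77 and 0.12 with it in Cy3. A second Ripk4 probe, measured on 4 arrays, had the opposite signs. It read 0.40 in set 2 with treated RNA in Cy5 and -0.14, -0.61 and -0.26 with it in Cy3. Of the 2 RIP kinases measured, 0 passed limma's test, also at an unadjusted p below 0.05.

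**Figure D2:**
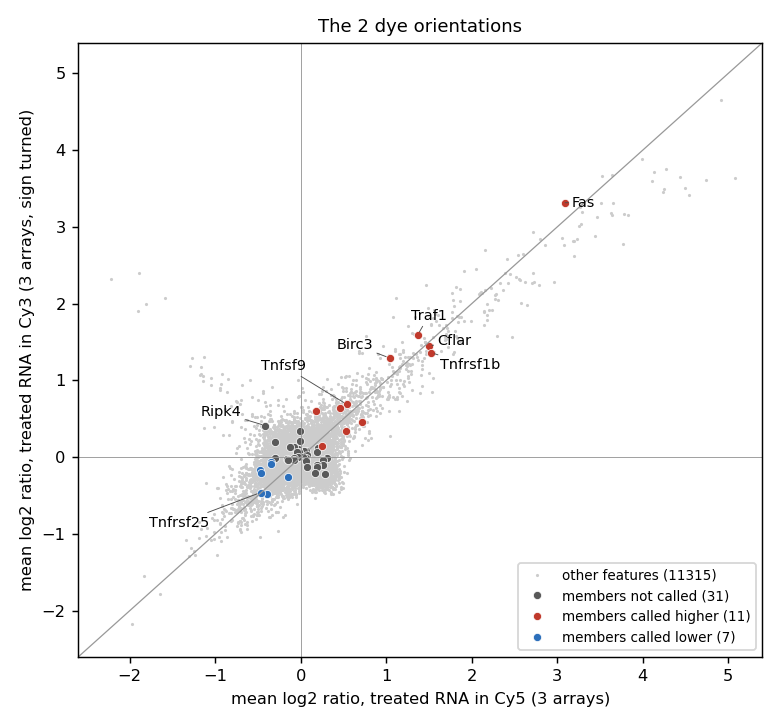
Mean log2 ratio over the 3 arrays with treated RNA in Cy5 (x axis) against the mean over the 3 arrays with treated RNA in Cy3 after the sign was turned (y axis), for 49 members in colour and the other features in grey; the diagonal marks equal values. Fas, Traf1, Cflar, Tnfrsf1b and Birc3 lie near the diagonal, and Ripk4 lies off it.

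Several genes had probes that gave different values. Of the 16 members with exactly 2 probes measured on all arrays, 5 had a difference between the probes that passed limma's test (9.17% of 1701 such genes did). Tested singly, 15 member probes of 69 were higher and 12 lower, beside 14.1% and 14.6% of 13415 probes. That test was chosen after the probe values were seen. Tnfrsf13b had the widest gap: one probe read 1.19, 0.74 and 1.01 in Cy5 and 1.22, 2.06 and 1.40 in Cy3, a mean of 1.27 ± 0.11 that passed as higher (adjusted p = 2.49e-06). The other read 0.01, 0.07 and -0.25 in Cy5 and -0.37, -0.21 and -0.21 in Cy3, a mean of -0.16 ± 0.08 that passed as lower (adjusted p = 0.048). The second minus the first was -1.43 ± 0.044 (adjusted p = 8.71e-05), so the gene's mean of 0.55 describes neither probe. The call of the lower probe was lost without set 1 (-0.15, adjusted p = 0.19) and without set 3 (-0.13, adjusted p = 0.15).

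Casp2, an initiator caspase of the PIDDosome, had probes called in opposite directions. One read -0.11, -0.37 and -0.09 in Cy5 and -0.26, -0.22 and -0.36 in Cy3 (-0.23 ± 0.056, adjusted p = 0.0075). The other read 0.34, -0.24 and 0.28 in Cy5 and 0.29, 0.36 and 0.20 in Cy3 (0.20 ± 0.13, adjusted p = 0.036). The first was below 0 on every array, and the second was below 0 only in set 2 with treated RNA in Cy5. Their difference was -0.44 ± 0.073 (adjusted p = 0.0089) and was not called without set 1 (-0.41, adjusted p = 0.097). The higher probe was itself not called without set 1 (0.15, adjusted p = 0.20) or without set 3 (0.19, adjusted p = 0.12). Casp2 makes a long and a short splice form, and which form each probe reads was not analysed here.

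Other probe pairs differed in size, in sign or in neither. The Fas probes, both called higher, stood at 3.61 ± 0.29 and 2.79 ± 0.23, a difference of 0.82 ± 0.21 (adjusted p = 0.0052) that was not called without set 1 (0.88, adjusted p = 0.055). The Traf1 probes stood at 1.64 ± 0.17 and 1.32 ± 0.12 (difference 0.33 ± 0.096, adjusted p = 0.031) and those of Tnfrsf8, neither of them called, at -0.11 and 0.13 (difference -0.24 ± 0.017, adjusted p = 0.044). Both of these last calls were lost whichever set was left out. The Tnfrsf1a probes, at 0.56 and 0.62, and the Casp6 probes, at -0.20 and -0.21, did not pass the test of a difference (adjusted p = 0.60 and 0.96). For Fadd, 1 probe passed as lower (-0.37 ± 0.031) and the other stood at -0.03 ± 0.19, and for Cradd 1 passed (-0.35 ± 0.085) and the other stood at -0.08 ± 0.15. The slight falls of these adaptors thus each rest on 1 of 2 probes, although the differences between the probes did not pass (adjusted p = 0.083 for Fadd and 0.061 for Cradd).

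**Figure D3:**
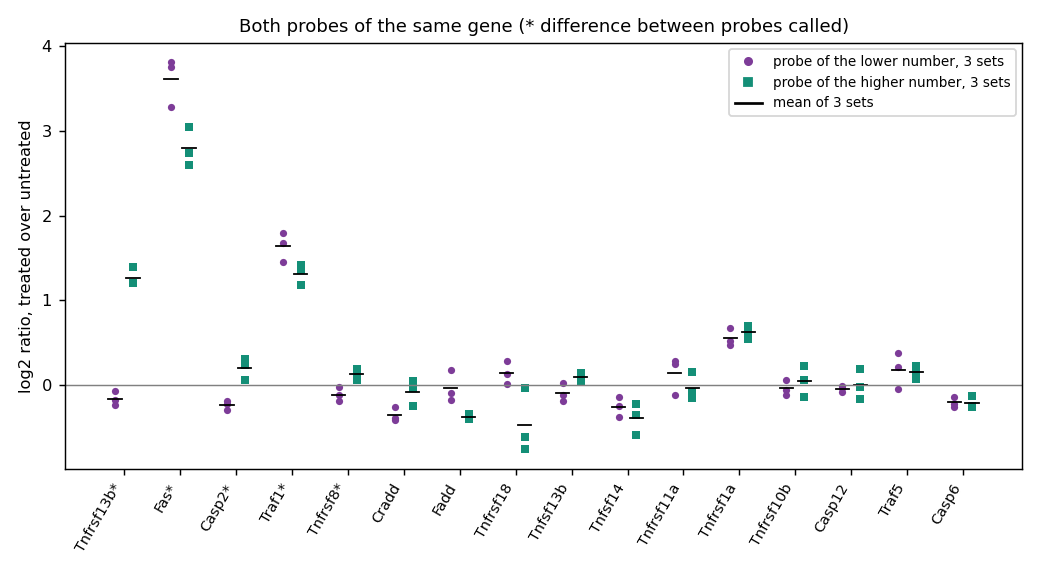
Log2 ratio of treated over untreated RNA (y axis) for both probes of the 16 member genes with 2 measured probes; points are the 3 set values, bars their means, and asterisks mark the 5 genes whose probes differed past the threshold. The 2 Tnfrsf13b probes lie on opposite sides of 0, at -0.16 and 1.27.

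Of the 10 probes with missing values, 1 had a value on no array, a second probe for Tnfrsf11b. A second probe for Tnfsf8 read -1.70, -0.47 and -0.96 with treated RNA in Cy5 and 1.34 and 0.70 with it in Cy3, so its sign differed between the orientations. It entered no test. The 9 probes measured on some arrays had values on 1 to 5 of them.

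Some members are neighbours in the genome, with no protein-coding gene between them on GRCm38.p6, which gives 6 pairs. Cflar (1.47) stands beside Casp8 (0.39), and both rose. Birc3 (1.17) rose beside Birc2 (0.02), which did not pass, and Tnfrsf1b (1.44) rose beside Tnfrsf8 (0.01), which did not pass. In the 3 other pairs, Tnfrsf4 with Tnfrsf18, Tnfrsf22 with Tnfrsf23, and Tnfsf12 with Tnfsf13, neither gene passed. Differences within pairs were not tested.

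Other genes of these pathways came from a list of 68, of which 54 were measured. Of these, 20 rose (37.0%), 11 fell (20.4%) and 23 did not pass, with a median of 0.06. Over all features 14.0% rose and 15.0% fell, with a median of 0.00079. The list holds many known LPS responders. Cd40, a TNF receptor family member of antigen-presenting cells, rose by 3.48 ± 0.39 on the log2 scale (adjusted p = 1.44e-06) and the cytokine Tnf by 2.08 ± 0.18 (adjusted p = 9.04e-07), so that Tnf and both of its receptors rose together. Ltb, a subunit of the Ltbr ligand, rose by 1.59 ± 0.15, beside an Ltbr that did not pass. The death-domain-associated protein Daxx rose by 2.13 ± 0.12, and the NF-κB restraining proteins Tnip1 by 1.68 ± 0.071 and Tnfaip3 (A20) by 1.29 ± 0.14. Among those that fell were Pidd1 (-0.57 ± 0.062), the partner of Cradd and Casp2, the stress kinase Map3k5 (-0.46 ± 0.067) and the apoptosome protein Apaf1 (-0.24 ± 0.031). Of the genes that did not pass, the BCL-2 family members Bak1 (0.25 ± 0.23) and Bid (0.16 ± 0.14) and the AP-1 subunit Jun (0.14 ± 0.17) had the largest changes.

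**Figure D4:**
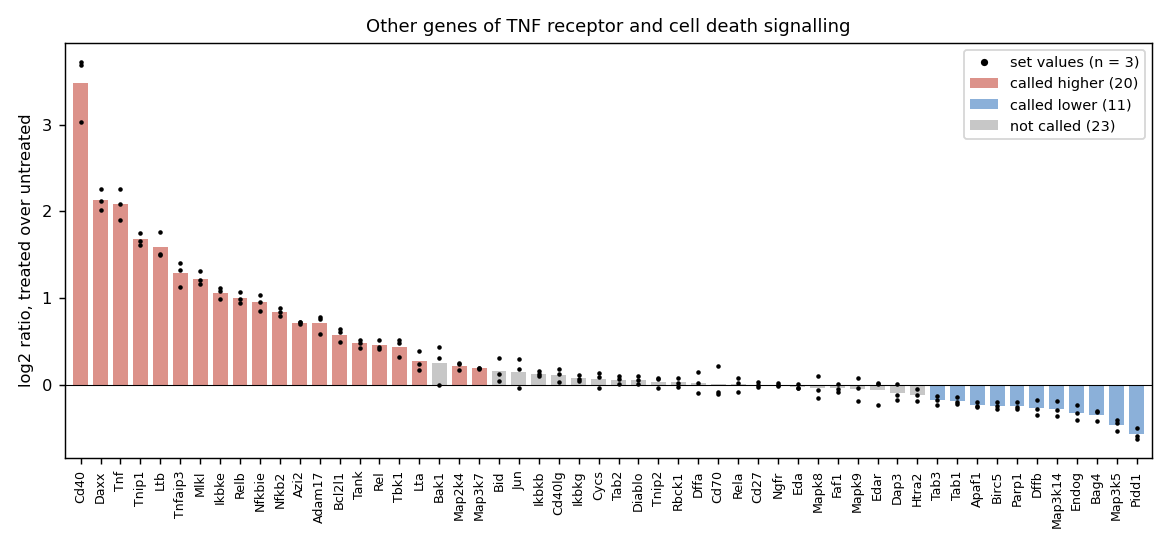
Mean log2 ratio of treated over untreated RNA (bars, y axis) for the 54 other genes of TNF receptor and cell death signalling that were measured, with the 3 set values as points. The bars run from Cd40 at 3.48 to Pidd1 at -0.57, with 20 called higher and 11 called lower. Over all features 14.0% were called higher and 15.0% lower.

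Between 14195 and 15027 probes had a value on each array, 73 to 77 of them members. Every array had a deposited median of 0 with exact zeros counted in. Over features measured on all arrays, the medians of the turned arrays ran from -0.012 to 0.013. Turned arrays correlated between 0.397 and 0.838 across features, and 0 features showed a dye effect at limma's adjusted p below 0.05, whereas 2630, 8 of them members, did at an unadjusted p below 0.05. The dye test averaged unturned arrays by set number. Where the turned arrays of a set deviate in opposite directions, that widens the spread between sets and weakens this test. The table holds ratios, so whether macrophage markers are present, or markers of other cells absent, cannot be read from it. Of 9 measured macrophage markers 6 rose (66.7%) and 1 fell (11.1%), beside 14.0% and 15.0% of all features. Markers of B cells, NK cells and fibroblasts did not pass (0 of 4 each with limma, also at an unadjusted p below 0.05), and of 6 T cell markers Cd4 rose (0.23 ± 0.12). Their part in the members' changes was not tested.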

How the data were processed

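The authors deposited log2 ratios of 6 two-colour arrays of 1 platform, 1 value per probe and array. The log base follows from the largest deposited value, 6.64, which is log2 of 100. Scanner, background correction, normalization and genome build are not given in the sources used here. How dim spots were treated is unknown. No spot intensities were used here. Exact zeros were taken as not measured. Gene names came from the platform annotation, and all 50 member Entrez IDs matched the GRCm38.p6 gene table. Per gene, the probes valued on every array were averaged (11364 features). The sign of each array with treated RNA in Cy3 was turned and both arrays of a set number averaged. The 3 set values were tested against 0, two-sided, with lmFit and eBayes of limma 3.58.1 in R 4.3.3, with Benjamini-Hochberg adjustment over all features. The fit was first tried on simulated data. Those had independent set values, so they could not test the averaging by set number. Folds are 2 to the power of the mean. The number of arrays limits the precision.

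The members and gene lists were chosen with earlier results of these data known. Every measured member is named. Members that were called, changed by at least 1.5-fold and had 1 sign on all arrays are given per array, as are the called member with the largest fall in each role group and genes whose probes were called in opposite directions. Of other pathway genes the 6 called and 3 uncalled with the largest changes are named, and Pidd1, Map3k5 and Apaf1 were added after their values were seen. Protein sequences were not analysed here.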

Additional observations from a re-analysis of the deposited data

Results flagged for a closer look

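A total of 4 members had opposite signs in the 2 dye orientations on every array. The dye effect, the mean of the log2 ratios before the sign was turned, was -0.41 for Ripk4 (adjusted p = 0.17 with limma), 0.25 for Tnfsf12 (adjusted p = 0.20), -0.25 for Tnfsf13 (adjusted p = 0.26) and 0.19 for Casp12 (adjusted p = 0.17). None of the 4 passed the test of a dye effect, which averaging by set number can weaken. Such opposite signs occurred in 4 of 49 members (8.16%) and in 1473 of 11364 features (13.0%). Their treatment values, from -0.05 to 0.04 on the log2 scale, are means of arrays that disagree. The Ripk4 values are those of 1 probe, and the signs of its second, partly measured probe ran the other way.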

How the results depend on the processing

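Of the 18 called members, 5 (Fas, Traf1, Cflar, Tnfrsf1b and Birc3) stayed past the threshold under each alternative they entered, which included other normalizations, either orientation alone, each set left out, other treatments of zeros and stricter thresholds. A member near or below 1.5-fold can hardly pass the test against a 1.5-fold change. Apart from that test, 10 of the 18 stayed past the threshold throughout, the other 5 being Tnfsf9, Tnfrsf1a, Tnfrsf13b, Bcl10 and Casp8ap2. For Tnfrsf13b that holds for a mean over probes called in opposite directions, and not for each probe. The 31 members that did not pass were compared 492 times, with 42 changes of sign, and 5 of them (Fasl, Tnfrsf18, Tnfsf4, Traf5 and Traf6) passed under at least 1 alternative. Members called higher numbered 10 to 12 with a set left out, and those called lower 6. The set number was checked as a pairing: deviations of same-numbered arrays correlated at -0.484, -0.512 and -0.020 in sets 1, 2 and 3, whereas set 2 in Cy5 with set 1 in Cy3 gave 0.527 and set 1 in Cy5 with set 2 in Cy3 gave 0.450. The arrays may therefore share only a number, yet the main SDs, adjusted p-values and calls rest on averaging by it. Averaging arrays that deviate in opposite directions narrows the spread between sets, so those adjusted p-values may be too small. Without that number as a replicate block, 6 separate arrays gave 9 members higher and 5 lower (1203 and 1264 features), and the calls of Casp8, Cradd, Fadd and Tnfrsf13c were lost (adjusted p = 0.084, 0.21, 0.091 and 0.15). With it as a random block, 12 were higher and 7 lower (1779 and 1919 features). As a fixed block it left 9 higher and 3 lower, with 904 features higher and 848 lower in all, and the 5 differences between probes were not called either. The Cy5 orientation alone gave 9 members higher and 3 lower (931 features higher and 894 lower), and the Cy3 orientation alone 11 higher and 3 lower (1303 and 1079 features). With exact zeros kept, 10 members were higher and 2 lower (1212 and 1219 of 13241 features, 9.15% and 9.21%). At an adjusted p below 0.01, 10 were higher and 4 lower (1064 and 1063 features), and against a 1.5-fold change 5 were higher and 0 lower (261 and 35 features). Counted as single probes, 12 were lower. The difference between the Tnfrsf8 probes reversed to 0.24 on the Cy3 arrays alone (adjusted p = 0.34). Apart from changes in the number of values tested or in the threshold, which those alternatives set themselves, the cause was not tested.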
